A study of Mus musculus with 18 samples.

Results

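The 32 genes described here belong to DNA replication: they license origins, unwind and copy the template, supply nucleotides, start S phase and rebuild chromatin behind the fork. They were chosen by name, as probe sets with a single gene symbol on that list, and the brightest on average over the 18 arrays stood for a gene that had several. All 32 were measured, of 22180 genes on the arrays. Every array carried RNA of C2C12 cells, an established clonal mouse myoblast line that differentiates into myotubes. Growth medium held 20% fetal bovine serum; differentiation was started with 2% horse serum, infection with a short hairpin RNA (shRNA) construct followed 36 h later, and the myotubes were collected after a further 48 h. Each of the 3 groups had 6 arrays: a control shRNA, an shRNA against Nup210, a nuclear pore protein, and an shRNA against Mef2c, a muscle transcription factor. All 3 groups thus share the line, the serum change and the infection, and the labels do not say whether the 6 samples of a group were grown as separate cultures, so p-values measure only how far these samples spread, and that spread may be technical. How many hairpins were used per target is not given here.

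Before a cell copies its DNA, Cdc6 and Cdt1 load the ring of the minichromosome maintenance proteins Mcm2 to Mcm7 onto origins, and Cdc45 and the GINS complex later join that ring to form the active helicase. DNA polymerases then copy both strands with the sliding clamp Pcna, while ribonucleotide reductase, thymidylate synthase and thymidine kinase supply the deoxynucleotides. Most of these genes are targets of the E2F transcription factors, which are held back when myoblasts leave the cell cycle to fuse, and differentiated C2C12 cultures still hold unfused mononucleate cells beside myotubes.

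The values are log2 levels per probe set, so a difference of 1 is a doubling, and levels of different genes are not set against each other. A gene was called changed where limma gave a Benjamini-Hochberg adjusted p under 0.05 over all 22180 genes; adjusted p-values are from that fit unless another setting is named, and differences between groups in it carry their standard error (SE). In these bulk RNA samples, fewer cells of a type and less RNA per cell cannot be told apart. Array medians lay between 5.48 and 5.57, and arrays of a group correlated at 0.991 to 0.995 over all genes. Mef2c fell to 17.9% of its control level (7.91 ± 0.21 against 10.39 ± 0.16, SD, n = 6 each; two-sided exact permutation p = 0.00216). Nup210 stood at 93.1% of control in the arrays labelled Nup210 shRNA (5.65 ± 0.11 against 5.75 ± 0.09, SD, n = 6 each; exact permutation p = 0.0801), so a level below control was not shown for it. Against the Mef2c shRNA arrays Nup210 was lower (-0.23 ± 0.064, SE, adjusted p = 0.0178, a call lost in 2 of 29 alternatives). Against control its difference was only -0.10, so the rest of that gap came from Mef2c shRNA arrays reading above control. The call therefore does not show a knockdown. Results for the Nup210 shRNA group are those of the arrays so labelled. As a guide to background, 95% of 1392 olfactory and vomeronasal receptor genes lay under 5.47; 31 of the 32 replication genes had a mean above that level, and Gins1 did not. Nup210 itself was measured close to it, and whether its probe set reports the knockdown was not tested. All 12 myotube markers examined were above it, as were 12 of 12 markers of undifferentiated myoblasts and reserve cells, 5 of 7 fibroblast markers (Lum and Twist2 were below), 2 of 6 adipocyte markers and 2 of 6 macrophage markers.

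The promoters of 5 genes are shown as examples. Mcm6, Pola1 and Mcm5 fell under Mef2c shRNA and held the most E2F words of the called genes with a matched promoter. Mcm2 and Mcm7 changed in opposite directions under Nup210 shRNA. Each is the 180 bases before the transcription start, read 5′ to 3′ on the gene's strand from RefSeq's promoters of mouse build GRCm38.p6: Mcm6 at chr1:128359706-128359885 on the minus strand, Pola1 at chrX:93632156-93632335 on the minus strand, Mcm5 at chr8:75109329-75109508 on the plus strand, Mcm2 at chr6:88898781-88898960 on the minus strand and Mcm7 at chr5:138171884-138172063 on the minus strand (the upstream of its 2 starts). Capitals mark, on either strand, the NF-Y word CCAAT and any of the E2F words, namely TTCCCGC, as well as its variants TTCGCGC, followed by TTGCCGC, and lastly also TTGGCGC.
Mcm6: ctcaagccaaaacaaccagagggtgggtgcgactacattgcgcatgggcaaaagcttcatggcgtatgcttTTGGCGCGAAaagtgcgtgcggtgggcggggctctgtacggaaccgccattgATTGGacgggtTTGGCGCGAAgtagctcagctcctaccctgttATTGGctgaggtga
Pola1: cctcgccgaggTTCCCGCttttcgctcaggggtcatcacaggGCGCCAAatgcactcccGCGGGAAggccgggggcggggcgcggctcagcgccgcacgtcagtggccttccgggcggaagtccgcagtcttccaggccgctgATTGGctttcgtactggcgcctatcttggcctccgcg
Mcm5: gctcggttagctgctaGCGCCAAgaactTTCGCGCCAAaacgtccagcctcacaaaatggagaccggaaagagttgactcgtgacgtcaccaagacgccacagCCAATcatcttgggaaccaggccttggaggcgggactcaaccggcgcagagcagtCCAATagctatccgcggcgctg
Mcm2: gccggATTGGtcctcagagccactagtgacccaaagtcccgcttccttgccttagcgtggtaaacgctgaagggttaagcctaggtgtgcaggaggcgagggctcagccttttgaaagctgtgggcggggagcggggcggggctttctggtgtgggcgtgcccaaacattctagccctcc
Mcm7: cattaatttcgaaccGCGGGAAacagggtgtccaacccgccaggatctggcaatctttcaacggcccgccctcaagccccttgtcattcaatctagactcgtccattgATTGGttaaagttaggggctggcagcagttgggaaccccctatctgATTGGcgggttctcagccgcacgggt
The Mcm6 stretch holds 4 E2F words in 2 sites, since words on opposite strands overlap, and 2 CCAAT words. Pola1 has 3 separate E2F words and 1 CCAAT word, and Mcm5 has 3 E2F words in 2 sites and 2 CCAAT words. Mcm7 has 1 E2F word and 2 CCAAT words, and Mcm2 has 1 CCAAT word and no E2F word in the stretch shown. No E2F word shown overlaps a CCAAT word. RefSeq promoters were matched for 28 of the 32 genes (not Mcm4, Gins1, Gins2 or Pole). In the 250 bases before the start, 14 of the 28 genes (50%) held an E2F word, against 11.4% of the 16990 array genes with a promoter in the table and 7.89% of its 32851 promoters. The CCAAT word was in 18 of 28 (64.3%), against 38.7% of array genes and 33.8% of promoters. The MEF2 motif was in 0 of 28, against 0.594% of array genes and 0.508% of promoters. At so low a share, 0 of 28 cannot show a shortage of the motif. Genes with an E2F word made up 9 of the 18 matched genes that fell under Mef2c shRNA and 5 of the 10 that were not called. Those with a CCAAT word made up 10 of the 18 and 8 of the 10. A match is a description of the letters and shows neither binding nor a cause.

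Under Mef2c shRNA, 21 of the 32 replication genes fell and 0 rose, where 6.42% of all genes fell and 4.34% rose; at an unadjusted limma p under 0.05 the counts were 28 and 0. The difference from control was below 0 for all 32, with a median of -0.29 (81.9% of the control level), while the median over all genes was 0.02 and 43.4% of genes were below 0. For 16 of the 32, all 6 Mef2c shRNA arrays lay under all 6 control arrays, which held for 4.77% of all genes; the reverse held for 0 of the 32 and 2.97% of all genes. With each array centred on its median, 592 of all genes rose and 1601 fell, against 963 and 1423 in the values as deposited, and 22 of the 32 replication genes fell. Licensing genes, the loaders and the helicase ring, had the lowest median by role, and the 6 ring subunits all fell. Under Nup210 shRNA, by contrast, 1 gene rose (Mcm7) and 1 fell (Mcm2), where 3.05% of all genes rose and 5.11% fell, and the other 30 were not called.

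**Figure D1:**
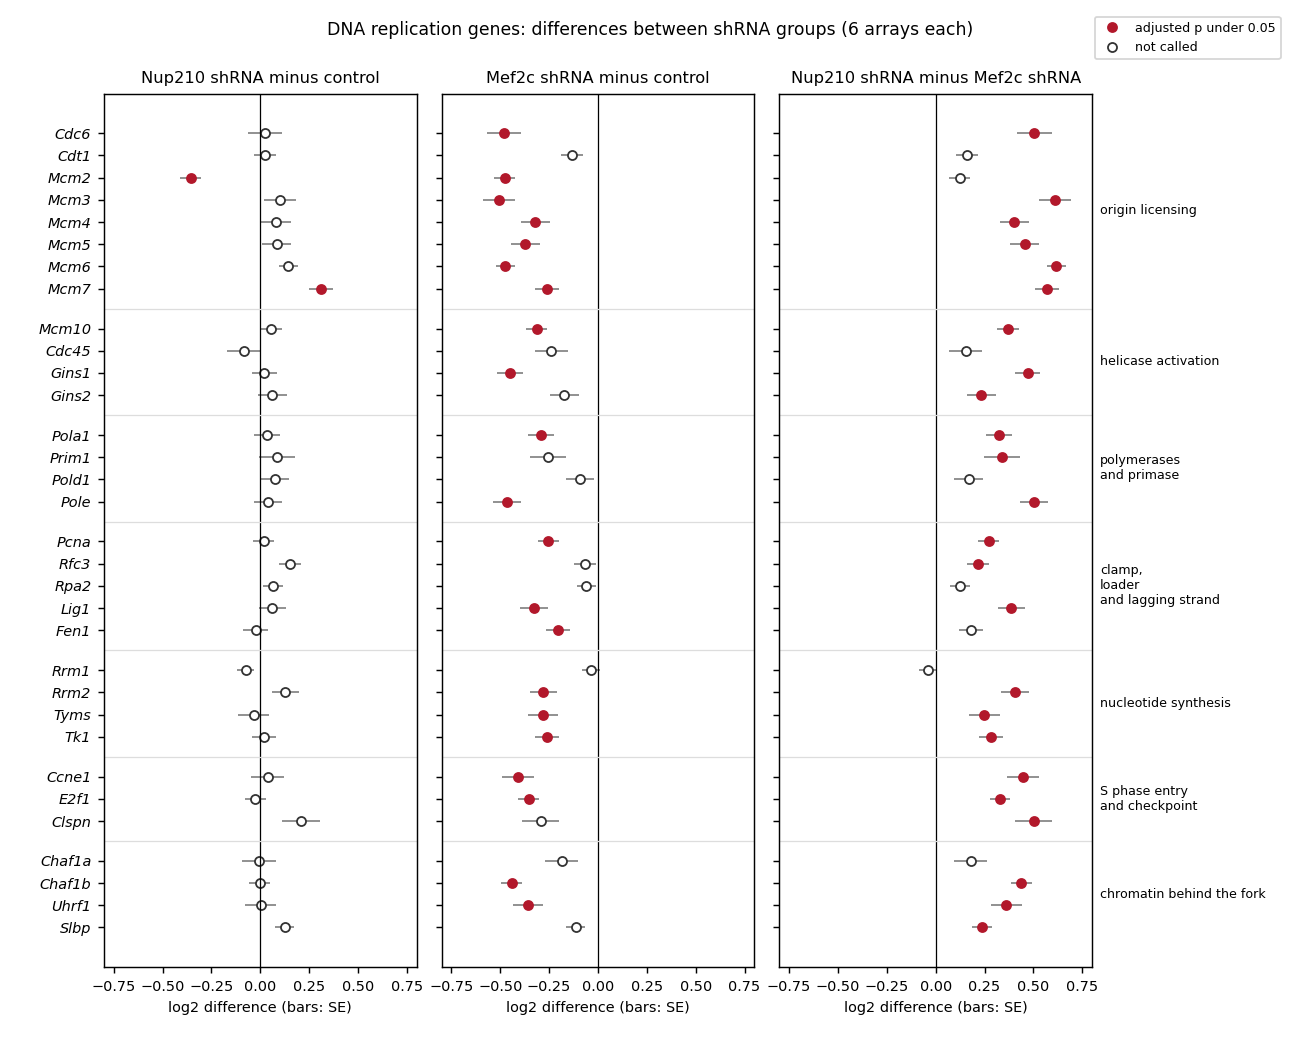
Log2 difference (x axis, bars are SE) of the 32 replication genes, grouped by role, between Nup210 shRNA and control, Mef2c shRNA and control, and Nup210 shRNA and Mef2c shRNA (6 arrays a group); filled points had an adjusted p under 0.05. In the middle panel all 32 points lie left of 0 and 21 are filled, while in the left panel only Mcm2 and Mcm7 are.

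Of the 8 licensing genes, 7 fell under Mef2c shRNA, with a median of -0.42 over the 8. Cdc6, the ATPase that loads the ring together with the origin recognition complex, was among the genes with the largest fall. Cdc6 read 5.91 to 6.43 (median 6.12) in the control arrays, 5.88 to 6.31 (median 6.25) under Nup210 shRNA and 5.46 to 5.78 (median 5.71) under Mef2c shRNA. It fell by 0.48 ± 0.089 (SE, adjusted p = 0.0013) under Mef2c shRNA, to 71.6% of control with no overlap, and was 0.02 ± 0.089 (SE, adjusted p = 0.924) from control under Nup210 shRNA. Cdt1, its loading partner, was the member of this role not called in any comparison. Cdt1 read 6.77 to 6.87 (median 6.85) in the control arrays, 6.71 to 7.02 (median 6.89) under Nup210 shRNA and 6.60 to 6.89 (median 6.68) under Mef2c shRNA. Its difference under Mef2c shRNA was -0.13 ± 0.057 (SE, adjusted p = 0.155), and the 2 ranges overlapped.

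Every ring subunit was lower under Mef2c shRNA. Mcm2 read 8.01 to 8.22 (median 8.13) in the control arrays, 7.71 to 7.82 (median 7.78) under Nup210 shRNA and 7.52 to 7.78 (median 7.67) under Mef2c shRNA. Mcm3 read 7.69 to 8.19 (median 7.87) in the control arrays, 7.95 to 8.14 (median 8.01) under Nup210 shRNA and 7.29 to 7.55 (median 7.40) under Mef2c shRNA. Mcm4 read 8.15 to 8.58 (median 8.30) in the control arrays, 8.22 to 8.58 (median 8.46) under Nup210 shRNA and 7.93 to 8.17 (median 8.02) under Mef2c shRNA. Mcm2 and Mcm3 had no overlap between Mef2c shRNA and control, whereas the highest Mef2c shRNA array of Mcm4 passed its lowest control array. Mcm5 read 6.74 to 7.28 (median 7.02) in the control arrays, 6.96 to 7.27 (median 7.07) under Nup210 shRNA and 6.54 to 6.71 (median 6.67) under Mef2c shRNA. Mcm6 read 8.02 to 8.16 (median 8.06) in the control arrays, 8.14 to 8.32 (median 8.19) under Nup210 shRNA and 7.47 to 7.76 (median 7.60) under Mef2c shRNA. Mcm7 read 7.996 to 8.28 (median 8.19) in the control arrays, 8.30 to 8.68 (median 8.45) under Nup210 shRNA and 7.85 to 7.98 (median 7.90) under Mef2c shRNA. None of these 3 subunits overlapped between Mef2c shRNA and control. Mcm3 fell by 0.51 ± 0.082 (SE, adjusted p = 0.000413), the largest fall of the 32 genes, to 70.3% of control. Mcm2 fell by 0.48 ± 0.053 (SE, adjusted p = 8.74e-06) and Mcm6 fell by 0.47 ± 0.048 (SE, adjusted p = 3.55e-06), the latter with the lowest p-value of the group. Smaller falls were those of Mcm5, which fell by 0.37 ± 0.074 (SE, adjusted p = 0.00263), of Mcm4, which fell by 0.32 ± 0.075 (SE, adjusted p = 0.00775), and of Mcm7, which fell by 0.26 ± 0.061 (SE, adjusted p = 0.00879). The calls of Mcm4 and Mcm7 were lost without control arrays 4 and 6 (adjusted p = 0.0642 and 0.0742), the control arrays with the highest means over the 32 genes.

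Within the ring, Mcm2 and Mcm7 were set apart under Nup210 shRNA. Mcm2 was -0.36 ± 0.053 (SE, adjusted p = 0.000291) from control there, 78.1% of its level, and Mcm7 was 0.31 ± 0.061 (SE, adjusted p = 0.00334), 124%. Neither gene's 6 Nup210 shRNA arrays overlapped its 6 control arrays; such non-overlap held for 3.71% of all genes on the lower side and 1.92% on the higher. The other 4 subunits were 0.08 to 0.14 above control without a call, with Mcm6 nearest at 0.14 ± 0.048 (SE, adjusted p = 0.0789). Mcm6 passed the threshold with renewed quantile normalization (adjusted p = 0.0446), with dim genes left out (0.0341) and without Mef2c shRNA array 6 (0.0489). Mcm7 did not pass it without Nup210 shRNA arrays 2, 4 and 5, the 3 of lowest array weight (0.21, adjusted p = 0.0912). The fall of Mcm2 was called in all 29 alternative settings.

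The balance inside the ring was also described array by array, as each subunit minus the mean of the other 5, relative to the control mean of that quantity; it was chosen after the values had been seen and was not tested. For Mcm2 it ran from -0.10 to 0.07 in the control arrays, from -0.24 to 0.07 under Mef2c shRNA and from -0.62 to -0.38 under Nup210 shRNA. For Mcm7 it ran from -0.07 to 0.10 in control arrays, from 0.11 to 0.24 under Mef2c shRNA and from 0.22 to 0.50 under Nup210 shRNA. The Nup210 shRNA range of Mcm2 lay under those of both other groups. The quantities of Mcm2 and Mcm7 each hold the other gene in the mean. Under Nup210 shRNA the rise of Mcm7 thus lowers that of Mcm2, and the fall of Mcm2 raises that of Mcm7. Mcm7 lay above its control range in both shRNA groups, and its fall under Mef2c shRNA was the smallest of the 6.

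**Figure D2:**
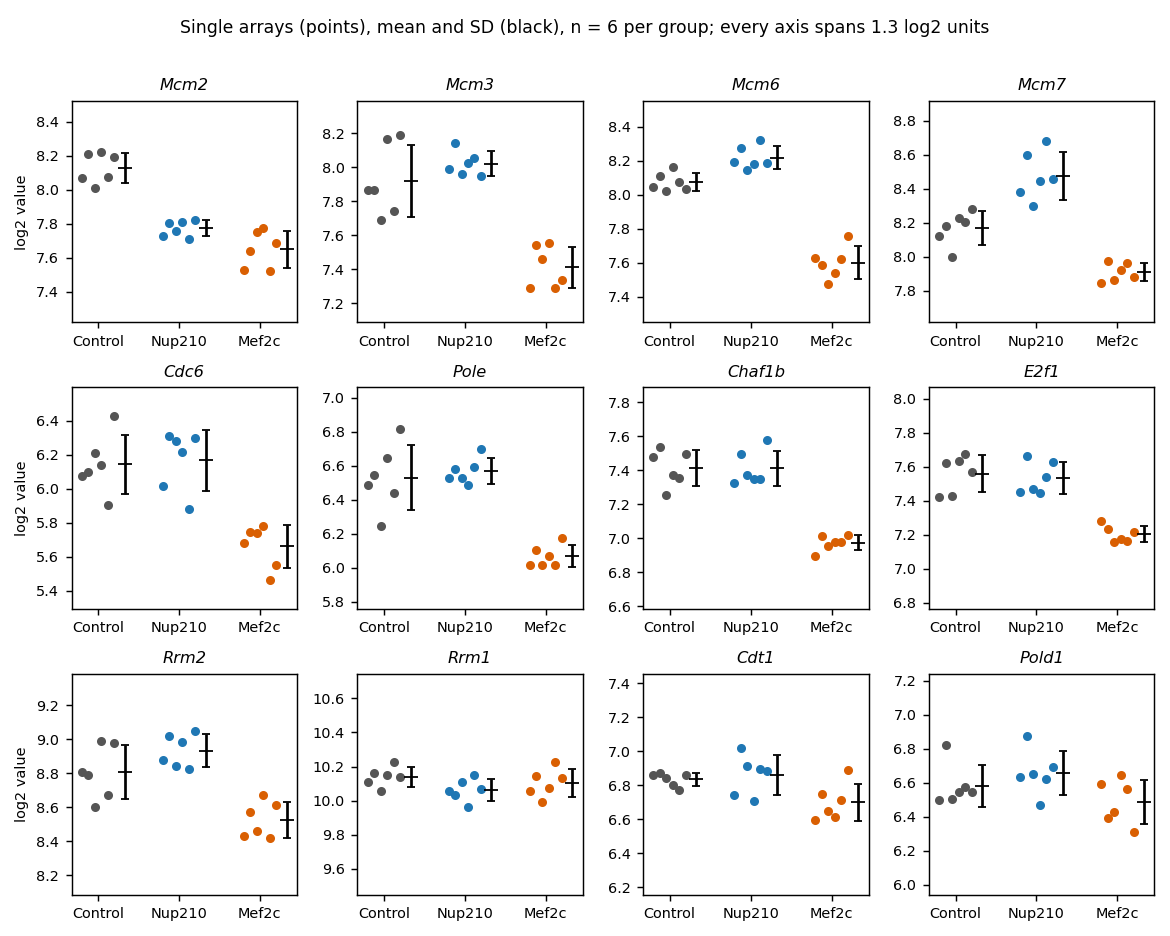
Log2 level (y axis) of 12 of the replication genes in each array, by shRNA group (6 points each; black marks are the mean and SD). Mcm2 is lower in both shRNA groups than in control, Mcm7 is higher under Nup210 shRNA and lower under Mef2c shRNA, and Rrm1 overlaps in all 3 groups.

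Among the 4 genes that turn the loaded ring into a working helicase, 2 fell under Mef2c shRNA and the median was -0.28. Mcm10, which is needed for origin firing, and Gins1, a GINS subunit, were the ones called. Mcm10 read 6.12 to 6.38 (median 6.32) in the control arrays, 6.25 to 6.51 (median 6.35) under Nup210 shRNA and 5.86 to 6.07 (median 5.997) under Mef2c shRNA. Gins1 read 5.33 to 5.70 (median 5.47) in the control arrays, 5.38 to 5.63 (median 5.53) under Nup210 shRNA and 4.97 to 5.11 (median 5.05) under Mef2c shRNA. Neither gene's Mef2c shRNA arrays overlapped control. Mcm10 fell by 0.31 ± 0.055 (SE, adjusted p = 0.000777) and Gins1 fell by 0.45 ± 0.065 (SE, adjusted p = 0.000133). The mean of Gins1 was below the background guide. Cdc45, the helicase cofactor, was at -0.24 ± 0.084 (SE, adjusted p = 0.0825) and Gins2, another GINS subunit, at -0.17 ± 0.073 (SE, adjusted p = 0.159), both uncalled with overlapping ranges. Those of Cdc45 were 6.28 to 6.83 in control, 6.18 to 6.54 under Nup210 shRNA and 6.18 to 6.52 under Mef2c shRNA. Gins2 read 6.44 to 6.60 (median 6.51) in the control arrays, 6.43 to 6.70 (median 6.56) under Nup210 shRNA and 6.07 to 6.62 (median 6.36) under Mef2c shRNA.

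Of the polymerase and primase genes, Pole and Pola1 fell under Mef2c shRNA and Prim1 and Pold1 were not called, with a median of -0.27 over the 4. Pole read 6.25 to 6.82 (median 6.52) in the control arrays, 6.48 to 6.70 (median 6.55) under Nup210 shRNA and 6.01 to 6.18 (median 6.04) under Mef2c shRNA. Pole, the catalytic subunit of the leading strand polymerase epsilon, fell by 0.46 ± 0.072 (SE, adjusted p = 0.00027), to 72.5% of control. Pola1 read 6.66 to 7.03 (median 6.81) in the control arrays, 6.70 to 7.01 (median 6.84) under Nup210 shRNA and 6.35 to 6.57 (median 6.56) under Mef2c shRNA. Pola1, the catalytic subunit of polymerase alpha, which begins each new strand, fell by 0.29 ± 0.067 (SE, adjusted p = 0.0069). Neither overlapped between Mef2c shRNA and control, and the call of Pola1 was lost without control arrays 4 and 6 (adjusted p = 0.0537). Prim1 read 7.06 to 7.67 (median 7.34) in the control arrays, 7.29 to 7.50 (median 7.44) under Nup210 shRNA and 6.91 to 7.39 (median 7.06) under Mef2c shRNA. Prim1, the primase subunit that makes the RNA primer, was at -0.26 ± 0.092 (SE, adjusted p = 0.0881). Pold1, the catalytic subunit of polymerase delta, was at -0.09 ± 0.073 (SE, adjusted p = 0.502), with control arrays from 6.50 to 6.82 and Mef2c shRNA arrays from 6.31 to 6.64.

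Of the 5 genes of the clamp, its loader and the lagging strand, 3 fell under Mef2c shRNA, with a median of -0.20. Pcna read 8.97 to 9.30 (median 9.10) in the control arrays, 9.04 to 9.22 (median 9.15) under Nup210 shRNA and 8.80 to 8.96 (median 8.86) under Mef2c shRNA. Lig1 read 6.84 to 7.24 (median 7.16) in the control arrays, 6.96 to 7.27 (median 7.19) under Nup210 shRNA and 6.62 to 6.89 (median 6.79) under Mef2c shRNA. Fen1 read 6.06 to 6.43 (median 6.20) in the control arrays, 6.01 to 6.38 (median 6.19) under Nup210 shRNA and 5.96 to 6.10 (median 5.998) under Mef2c shRNA. The ranges of Pcna did not overlap between Mef2c shRNA and control, and those of Lig1 and Fen1 did. Pcna, the sliding clamp, fell by 0.25 ± 0.055 (SE, adjusted p = 0.00489), and Lig1, the ligase that seals Okazaki fragments, fell by 0.33 ± 0.071 (SE, adjusted p = 0.00521). Fen1, the nuclease that trims their flaps, fell by 0.20 ± 0.063 (SE, adjusted p = 0.0431), a call that leaving out any 1 of 10 arrays ended (Nup210 shRNA array 6, Mef2c shRNA arrays 1, 2, 4, 5 and 6, and control arrays 1, 3, 4 and 6, with adjusted p from 0.0518 to 0.104). Rfc3, a subunit of the clamp loader, was at -0.07 ± 0.058 (SE, adjusted p = 0.563) and Rpa2, a subunit of the single-strand binding protein RPA, at -0.06 ± 0.051 (SE, adjusted p = 0.551). Rfc3 read 6.79 to 7.03 (median 6.95) in the control arrays, 6.99 to 7.18 (median 7.10) under Nup210 shRNA and 6.71 to 6.98 (median 6.91) under Mef2c shRNA.

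The nucleotide genes included both subunits of 1 enzyme. Ribonucleotide reductase joins a large subunit, Rrm1, to a small subunit, Rrm2. Rrm1 read 10.05 to 10.22 (median 10.14) in the control arrays, 9.96 to 10.15 (median 10.06) under Nup210 shRNA and 9.99 to 10.23 (median 10.10) under Mef2c shRNA. Rrm2 read 8.60 to 8.99 (median 8.80) in the control arrays, 8.83 to 9.05 (median 8.93) under Nup210 shRNA and 8.42 to 8.67 (median 8.52) under Mef2c shRNA. All 3 groups of Rrm1 overlapped, and the highest Mef2c shRNA array of Rrm2 passed its lowest control array. Rrm1 was at -0.04 ± 0.045 (SE, adjusted p = 0.708) under Mef2c shRNA, with a 95% interval from -0.13 to 0.06, the difference nearest 0 of the 32 genes. Rrm2 fell by 0.28 ± 0.07 (SE, adjusted p = 0.0138), not called without control arrays 4 and 6 (adjusted p = 0.113). The difference between the falls of the 2 subunits was not tested.

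Both thymidylate enzymes fell with Rrm2, making 3 of the 4 nucleotide genes and a median of -0.27. Tyms read 7.68 to 7.995 (median 7.81) in the control arrays, 7.47 to 7.97 (median 7.86) under Nup210 shRNA and 7.44 to 7.71 (median 7.48) under Mef2c shRNA. Tk1 read 7.01 to 7.40 (median 7.21) in the control arrays, 7.09 to 7.38 (median 7.22) under Nup210 shRNA and 6.89 to 6.999 (median 6.95) under Mef2c shRNA. Tk1, the thymidine kinase of the salvage route, had no overlap between Mef2c shRNA and control, and Tyms, which makes thymidylate anew, did. Tk1 fell by 0.26 ± 0.062 (SE, adjusted p = 0.00843) and Tyms fell by 0.28 ± 0.079 (SE, adjusted p = 0.0267). The call of Tyms was lost without Mef2c shRNA array 1, 2, 3 or 5 or control array 2 (adjusted p from 0.0523 to 0.0655) and without control arrays 4 and 6 together (0.0722).

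S phase entry genes were low under Mef2c shRNA as well: 2 of 3 fell and the median was -0.35. Ccne1 read 6.59 to 6.96 (median 6.73) in the control arrays, 6.66 to 6.94 (median 6.77) under Nup210 shRNA and 6.19 to 6.55 (median 6.35) under Mef2c shRNA. E2f1 read 7.42 to 7.68 (median 7.59) in the control arrays, 7.45 to 7.66 (median 7.50) under Nup210 shRNA and 7.16 to 7.28 (median 7.19) under Mef2c shRNA. Clspn read 5.80 to 6.35 (median 6.01) in the control arrays, 6.01 to 6.36 (median 6.26) under Nup210 shRNA and 5.59 to 5.92 (median 5.75) under Mef2c shRNA. Ccne1 and E2f1 had no overlap between Mef2c shRNA and control, and Clspn did. Ccne1, the cyclin that activates Cdk2 before S phase, fell by 0.41 ± 0.082 (SE, adjusted p = 0.00285), and E2f1, the transcription factor that drives many of these genes, fell by 0.35 ± 0.053 (SE, adjusted p = 0.000213). Clspn, a checkpoint adaptor at the fork, was at -0.29 ± 0.095 (SE, adjusted p = 0.0566). It passed the threshold in some alternatives, among them dim genes left out (0.0266) and each array centred on its median (0.04).

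Behind the fork, Chaf1b and Uhrf1 fell under Mef2c shRNA and Chaf1a and Slbp were not called, with a median of -0.27 over the 4. Chaf1b read 7.25 to 7.54 (median 7.43) in the control arrays, 7.32 to 7.58 (median 7.36) under Nup210 shRNA and 6.90 to 7.02 (median 6.98) under Mef2c shRNA. Uhrf1 read 6.88 to 7.25 (median 6.995) in the control arrays, 6.73 to 7.16 (median 7.07) under Nup210 shRNA and 6.50 to 6.79 (median 6.68) under Mef2c shRNA. Slbp read 7.81 to 7.99 (median 7.90) in the control arrays, 7.96 to 8.14 (median 7.995) under Nup210 shRNA and 7.68 to 7.90 (median 7.80) under Mef2c shRNA. Chaf1b and Uhrf1 had no overlap between Mef2c shRNA and control, while Slbp did. Chaf1b, a subunit of the chromatin assembly factor that places histones on new DNA, fell by 0.44 ± 0.054 (SE, adjusted p = 2.88e-05), to 73.7% of control. Uhrf1, which directs maintenance methylation to new DNA, fell by 0.36 ± 0.078 (SE, adjusted p = 0.00506). Chaf1a, the large subunit of the same assembly factor, was at -0.19 ± 0.086 (SE, adjusted p = 0.197), and Slbp, which binds histone mRNA, at -0.11 ± 0.049 (SE, adjusted p = 0.164).

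Under Nup210 shRNA the replication genes as a group lay close to control. Their median difference was 0.04, against 0.02 over all genes, and 24 of the 32 were above 0, where 55.1% of all genes were. At an unadjusted limma p under 0.05, 5 were higher and 1 was lower. Without control arrays 4 and 6 the median rose to 0.093, against 0.0075 over all genes. The counts and intervals that follow are those with all arrays. A total of 28 were within 0.15 of control. The 95% intervals of the 30 uncalled genes ran from -0.26 (Cdc45) to 0.41 (Clspn), so changes of that size were not excluded for single genes. Apart from Mcm7 and Mcm2, the differences farthest from 0 were those of Clspn, at 0.21 ± 0.095 (SE, adjusted p = 0.225), and Rfc3, at 0.15 ± 0.058 (SE, adjusted p = 0.128).

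Set directly against Mef2c shRNA, 24 of the 32 genes were higher under Nup210 shRNA and 0 were lower, where 7.1% of all genes were higher and 6.93% lower; at an unadjusted limma p under 0.05 the counts were 29 and 0. The median difference was 0.34, against -0.0035 over all genes, and for 20 genes the 2 sets of arrays did not overlap, which held for 4.5% of all genes on that side and 4.12% on the other. The comparisons share the Mef2c shRNA arrays, so the calls are given side by side: 19 of the 21 genes that fell against control were also lower than in the Nup210 shRNA arrays. The remaining 2 were Fen1 and Mcm2, which was 0.12 ± 0.053 (SE, adjusted p = 0.153) between the shRNA groups, having fallen in both. A further 5 were called in this comparison alone: Gins2, Prim1, Rfc3, Clspn and Slbp. Another 6 were called in no comparison: Cdt1, Cdc45, Pold1, Rpa2, Rrm1 and Chaf1a.

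The widest gaps between the shRNA groups were in the ring. Mcm6 was 0.62 ± 0.048 (SE, adjusted p = 1.01e-07), Mcm3 was 0.61 ± 0.082 (SE, adjusted p = 4.24e-05) and Mcm7 was 0.57 ± 0.061 (SE, adjusted p = 4.25e-06) higher under Nup210 shRNA. By role, 6 of 8 licensing genes were higher (median 0.48), 3 of 4 of helicase activation (0.30), 3 of 4 polymerase and primase genes (0.33), 3 of 5 clamp and lagging strand genes (0.22), 3 of 4 nucleotide genes (0.26), 3 of 3 S phase entry genes (0.45) and 3 of 4 chromatin genes (0.30). Clspn, uncalled against control in both groups, was 0.50 ± 0.095 (SE, adjusted p = 0.0011) between them, and Slbp was 0.24 ± 0.049 (SE, adjusted p = 0.00225). Gins2, at 0.23 ± 0.073 (SE, adjusted p = 0.04), lost its call without any 1 of Nup210 shRNA arrays 2, 3, 5 and 6 or Mef2c shRNA arrays 2, 3, 4 and 5 (adjusted p from 0.0542 to 0.0954). Tyms, at 0.25 ± 0.079 (SE, adjusted p = 0.0435), was called in 11 of the 29 alternatives only, and leaving out any 1 of Nup210 shRNA arrays 1, 2, 5 and 6, Mef2c shRNA arrays 1, 2, 3, 5 and 6 or control arrays 1, 3, 4 and 6 ended its call (adjusted p from 0.0502 to 0.105). Without Nup210 shRNA arrays 2, 4 and 5, Prim1 (0.14) and Tk1 (0.0976) also lost theirs.

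**Figure D3:**
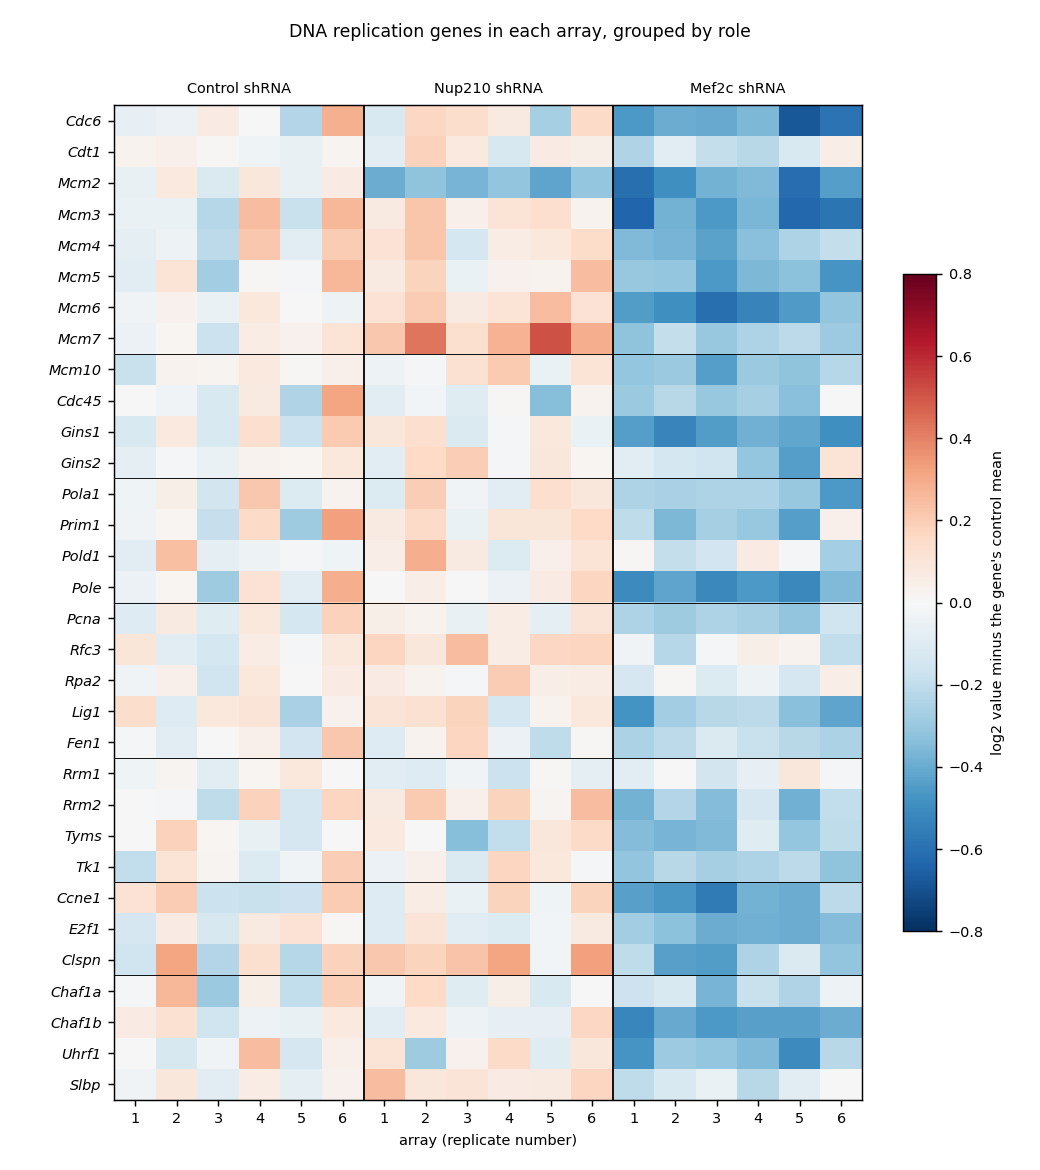
Level of each of the 32 replication genes (rows, by role) in each of the 18 arrays (columns, by group), as the log2 deviation from the gene's control mean (colour). The Mef2c shRNA columns are below the control mean in most rows, and control arrays 3 and 5 are the lowest of the control columns in most rows.

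The mean over the 32 genes, taken array by array as the deviation from the control mean, was -0.32 to -0.24 in the 6 Mef2c shRNA arrays, -0.11 to 0.13 in the control arrays and 0.0045 to 0.097 in the Nup210 shRNA arrays. No Mef2c shRNA array reached the lowest control array, although the control arrays spread most. Control array 3 was the lowest of the 6 for 16 of the genes and array 5 for 10, and array 6 was the highest for 12. The median SD of a replication gene was 0.131 over control arrays, 0.104 under Nup210 shRNA and 0.101 under Mef2c shRNA; for all genes above background it was 0.0885, 0.105 and 0.0953. Without control arrays 4 and 6, 15 genes fell under Mef2c shRNA instead of 21, with a median of -0.22. Those arrays had the highest control means over the 32 genes (0.07 and 0.13), so leaving them out lowers the control level of the list. Calls lost that way are no separate check of the falls.

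Further replication genes were counted in the same way, beside the 6.42% of all genes that fell and 4.34% that rose under Mef2c shRNA. Of 65 named from textbook roles, with earlier results of these data known, 60 were measured: 30 fell and 1 rose under Mef2c shRNA, with a median of -0.18. The 4 largest were Top2a, the topoisomerase that untangles sister chromatids, at -0.83 ± 0.074 (SE, adjusted p = 1.06e-06), Ccna2, the S phase cyclin, at -0.76 ± 0.076 (3.38e-06), Asf1b, a histone chaperone, at -0.68 ± 0.073 (6.25e-06), and Dtl, which directs Cdt1 to degradation, at -0.61 ± 0.067 (8.33e-06). The gene that rose was Samhd1, which breaks down deoxynucleotides (0.20 ± 0.05, adjusted p = 0.0121). Under Nup210 shRNA, 1 of the 60 rose (1.67%) and 3 fell (5%), near or below the 3.05% and 5.11% of all genes. Cdk2, the kinase partner of Ccne1, was at -0.33 ± 0.058 (adjusted p = 0.00115), and Rrm2b, the alternative small subunit of ribonucleotide reductase, at -0.24 ± 0.053 (0.00612). The calls of E2f2 (-0.35 ± 0.10, adjusted p = 0.0472) and Dctpp1, a nucleotide pyrophosphatase (0.21 ± 0.059, 0.0328), were lost in 21 and 12 of 29 alternatives, with adjusted p up to 0.117 and 0.0784 when 1 array was left out.

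Genes of mitosis and of cell cycle arrest were measured beside them. Of all genes, 6.42% fell and 4.34% rose under Mef2c shRNA, and 5.11% fell and 3.05% rose under Nup210 shRNA. Of 26 mitosis genes, Top2a among them, 22 fell under Mef2c shRNA and 0 rose, with a median of -0.68, led by Ndc80 (-0.97 ± 0.11, SE, adjusted p = 8.74e-06), a kinetochore protein, and Bub1 (-0.87 ± 0.12, 7.32e-05), a spindle checkpoint kinase. Under Nup210 shRNA 0 of the 26 were called by limma, and 1 was lower at an unadjusted p under 0.05. The mean of the 26 in single control arrays ran from -0.21 in array 3 to 0.19 in array 4 and 0.22 in array 6, and in the Mef2c shRNA arrays from -0.69 to -0.52. Against Mef2c shRNA, 22 of the 26 mitosis genes and 35 of the 60 further replication genes were higher under Nup210 shRNA. Lower were 0 and 3 of them, where 7.1% of all genes were higher and 6.93% lower. Of 11 genes that hold replication back, 2 fell and 1 rose under Mef2c shRNA, and 8 were not called. Those that fell were Cdkn1c, an inhibitor of cyclin-dependent kinases, and Rbl1, a pocket protein that binds E2F (-0.64 ± 0.057, adjusted p = 1.01e-06, and -0.37 ± 0.067, 0.00105). Rbl2, another pocket protein, rose (0.15 ± 0.047, adjusted p = 0.0398), a call lost in 12 of 29 alternatives, among them the removal of any 1 of Nup210 shRNA array 1, Mef2c shRNA arrays 1, 2, 3 and 5 and control arrays 1, 3, 4 and 6 (adjusted p up to 0.0969). Under Nup210 shRNA, E2f6, a repressing E2F, was at -0.26 ± 0.071 (adjusted p = 0.0278), a call lost in 11 of 29 alternatives, among them the removal of Nup210 shRNA array 4 or 5 or of control array 1, 2, 3, 4 or 6 (up to 0.066).

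**Figure D4:**
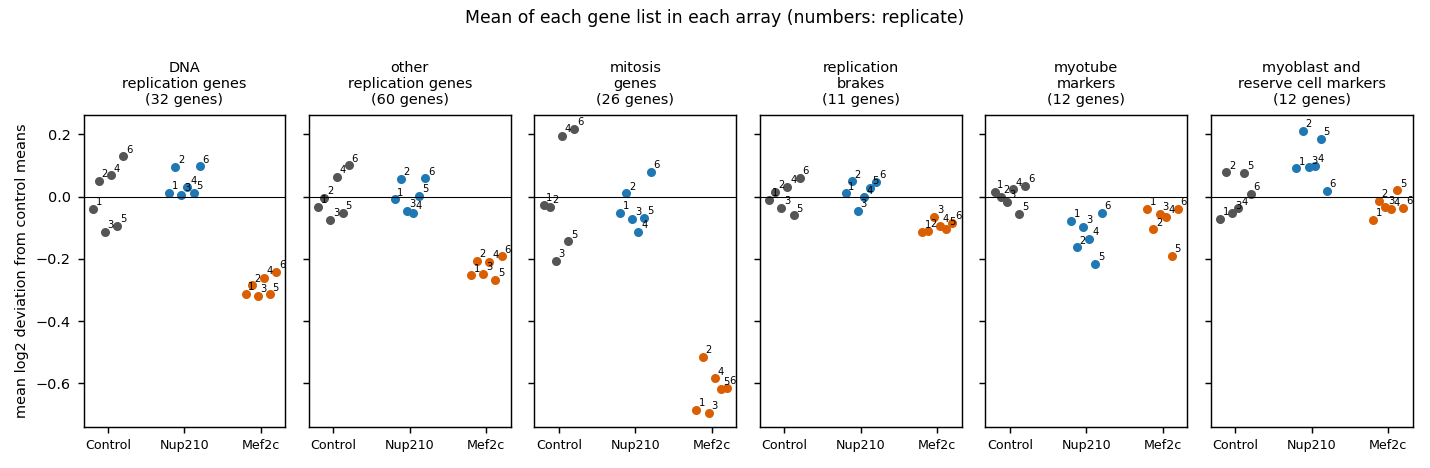
Mean level of each gene list in each array (points, 6 per group) as the log2 deviation from the control mean of that list. The Mef2c shRNA points of the replication, other replication and mitosis lists all lie below the control points, and the Nup210 shRNA points of these 3 lists overlap control.

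Some markers of the cells present were also called in the same arrays. Of all genes, 6.42% fell and 4.34% rose under Mef2c shRNA, and 5.11% fell and 3.05% rose under Nup210 shRNA. The mean of the 12 myotube markers was -0.06 to 0.04 in control arrays, -0.19 to -0.04 under Mef2c shRNA and -0.22 to -0.05 under Nup210 shRNA; Myh3 and Acta1 fell under Mef2c shRNA, and Ckm and Myh3 under Nup210 shRNA. The mean of the 12 myoblast and reserve cell markers was -0.07 to 0.08 in control, -0.07 to 0.02 under Mef2c shRNA and 0.02 to 0.21 under Nup210 shRNA. Of these, Myf5 rose and Hey1, Notch3 and Id2 fell under Mef2c shRNA, and Myf5, Id3 and Myod1 rose and Sdc4 fell under Nup210 shRNA. In each comparison with control, 10 of the 12 myotube markers and 8 of the 12 myoblast and reserve cell markers were not called. The mean of the fibroblast markers was -0.17 to 0.14 under Mef2c shRNA and 0.03 to 0.20 under Nup210 shRNA, against -0.06 to 0.07 in control, and of the 7 genes Dcn rose and Col1a1 fell under Mef2c shRNA and Col3a1 and Dcn rose under Nup210 shRNA. That of the adipocyte markers was -0.09 to 0.10 in control, 0.07 to 0.20 under Mef2c shRNA and -0.06 to 0.19 under Nup210 shRNA, and 0 of the adipocyte and macrophage markers were called by limma in a comparison with control. At an unadjusted p under 0.05, 2 adipocyte markers were higher under Mef2c shRNA and 1 macrophage marker under Nup210 shRNA. The macrophage means ran from -0.08 to 0.08 in control, -0.07 to 0.07 under Mef2c shRNA and -0.04 to 0.13 under Nup210 shRNA. The part of these cells in the replication gene differences was not tested.

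A second probe set was on the arrays for 3 of the 32 genes. For Pole and Rrm2 it was below the background guide (means of 4.16 and 4.33), and for Fen1 it was at 5.67. Under Mef2c shRNA these second probe sets differed from control by 0.05 for Pole, 0.05 for Rrm2 and -0.04 for Fen1. When the probe sets of a gene were averaged, the falls of Pole, Rrm2 and Fen1 were no longer called (adjusted p = 0.0764, 0.322 and 0.247), and the fallen genes numbered 18.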

How the data were processed

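The deposited table holds log2 expression values of 41345 probe sets on 18 one-colour arrays; per the submitters' processing notes the authors made them with RMA and Partek (version, settings and genome build: not given in the sources used here). The RMA method subtracts background, makes the arrays' distributions alike and summarises probes, and compresses differences of dim genes. All 18 columns were matched to samples by title. The platform annotation gave a single symbol to 23521 probe sets, more than 1 to 1814 and no symbol to 16010, and only the first kind was used. Entrez identifiers matched 23328 of the 23521 to RefSeq's gene table of GRCm38.p6, with 0 symbols changed. The brightest probe set by mean stood for each of 22180 genes.

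The model, fitted with limma 3.58.1 under R 4.3.3, held a mean for each group and no covariate (15 residual degrees of freedom), adjusting by Benjamini-Hochberg over all genes in each contrast at 0.05. Targeted genes were also compared by exact permutation. The number of arrays limits precision: the median SE of a difference over all genes was 0.0799. Simulated data held 22180 genes with 200 changed. For Mef2c shRNA against control, the fit recovered 25.4% of changes of 0.25, 68.7% of 0.5 and 100% of 1, with 5.84% of calls false. For Nup210 shRNA these were 32.8%, 80.6%, 100% and 4.05%. Both simulations used the control means and each gene's residual SD over all 3 groups, so their rates differ only by the random draw. In the data 2386 and 1809 genes were called in these comparisons, so the rates need not carry over.

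The replication genes, the other lists, the tests and the alternatives were chosen with earlier results of these data known. Values were given for every replication gene called in a comparison and for the largest difference in each role; of other lists, the targeted genes and up to 4 called genes per comparison were named, except that called cell type markers are named without values. Alternatives were 11 other choices of scaling, filter, prior, weights, threshold, probe set, replicate block and arrays, and the removal of each array. No label names a batch or scan date.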

Additional observations from a re-analysis of the deposited data

Results flagged for a closer look

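In 6 of 99 sets of 6 arrays (each replication gene and the mean of the list, in each group), the highest or lowest array stood apart from the other 5 by a gap above Dixon's 95% limit; chance alone gives about 1 in 20. Mcm10 read 6.12 in control array 1, with the other control arrays from 6.31 to 6.38. Cdc45 read 6.18 in Nup210 shRNA array 5, with the others from 6.42 to 6.54, and 6.52 in Mef2c shRNA array 6, with the others from 6.18 to 6.29. Pola1 read 6.35 in Mef2c shRNA array 6, with the others from 6.51 to 6.57. Pold1 read 6.82 in control array 2, with the others from 6.50 to 6.57. Rpa2 read 7.81 in Nup210 shRNA array 4, with the others from 7.60 to 7.67.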

How the results depend on the processing

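Over 29 alternatives, 2781 values of single replication genes were recomputed: 2681 kept their side of the threshold, 63 lost a call and 37 gained one. The sign changed in 0 called values and in 52 uncalled ones, all under Nup210 shRNA, from 13 genes and at most 0.06 in size. The falls called under Mef2c shRNA in every alternative numbered 14 of 21, the differences between the shRNA groups 19 of 24, and the calls under Nup210 shRNA 1 of 2 (Mcm2). Falls under Mef2c shRNA that were called only in some alternatives were those of Cdc45, Gins2, Prim1, Clspn and Chaf1a. The genes that rose under Nup210 shRNA numbered 2 with renewed quantile normalization, 2 with dim genes left out, 1 to 2 when 1 array was left out in turn, and 0 without Nup210 shRNA arrays 2, 4 and 5. With the mean of a gene's probe sets, the median of the nucleotide genes under Mef2c shRNA was -0.19. Of these genes only Rrm2 had a second probe set, and averaging took it from -0.28 to -0.12. In that setting the median of the genes that hold replication back was -0.074 under Mef2c shRNA, against 0.012 in the main fit, and the cause of that value was not tested. With the replicate block, 24 genes fell under Mef2c shRNA, 27 were higher under Nup210 than under Mef2c shRNA, and 1 rose and 1 fell under Nup210 shRNA. Same-numbered arrays of different groups deviated together weakly (r from -0.18 to 0.22, 6 of 18 pairs over 0.1). Their median r was 0.063, against -0.014 for other pairs, and the arrays numbered 5 had r from 0.17 to 0.22. Over all genes, the replicate block raised the calls under Mef2c shRNA from 963 higher and 1423 lower to 1221 and 1641. Under Nup210 shRNA they went from 676 and 1133 to 811 and 1410. The main fit did not pair the arrays, and whether equal numbers mark shared handling was not tested. Gins1, below the background guide, was not tested with dim genes left out.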

Other observations

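In the RefSeq promoter table, 4 replication genes had a neighbour on the opposite strand that starts within 1000 bases of their own start; these neighbours were looked up after the values had been seen. Ap4m1, a subunit of an adaptor complex of membrane traffic, starts 138 bases from Mcm7 and was at -0.04 ± 0.058 (SE) from control in both comparisons (adjusted p = 0.784 under Nup210 shRNA and 0.756 under Mef2c shRNA, limma), where Mcm7 was at 0.31 and -0.26. Zswim9 starts 105 bases from Lig1 and was at 0.05 ± 0.062 under Mef2c shRNA (adjusted p = 0.681), where Lig1 was at -0.33. Tmem258, 281 bases from Fen1, was at -0.03 ± 0.065 and Ufd1, 322 bases from Cdc45, at -0.07 ± 0.047 under Mef2c shRNA, neither called. The difference between a gene and its neighbour was not tested.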
